A study of Oryza sativa with 24 samples.

Results

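H3K27me3 peaks were compared between a pair of reciprocal rice F1 hybrids, one labelled Nipponbare/93-11 and the other 93-11/Nipponbare, each with 1 chromatin immunoprecipitation library. Each peak was classed as shared when it overlapped a peak of the other hybrid by at least 1 bp, and otherwise as a peak of 1 hybrid only. The list of Nipponbare/93-11 held 20360 peaks and that of 93-11/Nipponbare 20460, together 40820 of the 410072 peaks in the 16 lists of the series. The material was shoots of seedlings at the 4-leaf stage after 4 weeks in a greenhouse, from F1 crosses between Nipponbare, a japonica cultivar, and 93-11, an indica cultivar. The series also held lists of H3K4me3, H3K9ac and DNA methylation (an assay labelled McrBC sequencing) for both parents and both hybrids, which were used here to describe the H3K27me3 peaks. The labels do not say which name of a hybrid is the seed parent, so the names are used as given.

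H3K27me3, the trimethylation of lysine 27 of histone H3, is set by Polycomb repressive complex 2 and is known in plants for covering genes that are kept silent in a given tissue, many of them regulators of development. H3K4me3 and H3K9ac are marks of active or poised promoters, and DNA methylation in plants lies mostly on transposons and in some gene bodies. Reciprocal F1 hybrids carry the same nuclear alleles and differ in which parent gave the egg and the cytoplasm, so a comparison of their H3K27me3 asks whether the direction of the cross changes where the mark is found.

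The lists give chromosome, start and end of each peak, with no height, score or p-value. With 1 library per hybrid there is no replicate error and no test, and each difference is one between 2 libraries. Intervals are exact Clopper-Pearson 95% intervals and cover counting error only. Sequencing depth is unknown. Positions are as in the files, whose genome build is not given in the sources used here, and no gene is named because no annotation of that build was used. The lists used here may hold only some of the original entries, and regions are therefore called listed or not listed. The labelled mark could be checked only by position: 87.5% of the H3K27me3 peaks of Nipponbare/93-11 lay on H3K27me3 peaks of the other hybrid, 78.1% on H3K4me3 peaks of the same hybrid and 79.5% on its H3K9ac peaks. For 93-11/Nipponbare these shares were 87.0, 74.9 and 76.0%. H3K27me3 in turn lay on 52.3 and 51.9% of the H3K4me3 peaks of the hybrids, in the same order. The specificity of the antibodies could not be checked from the lists, and whole shoots were used. Marks listed at 1 position can therefore come, among other possibilities, from different cells or from an antibody that binds more than its target. These possibilities cannot be told apart.

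Most H3K27me3 regions were listed in both hybrids. Merging both lists gave 22961 regions, of which 17751 were in both, 2548 in Nipponbare/93-11 only and 2662 in 93-11/Nipponbare only. Regions of 1 hybrid only thus made up 22.7% (22.2 to 23.2%) of the merged regions, split nearly evenly at a ratio of 0.957. Seen from each list, 12.5% (12.1 to 13.0%) of the Nipponbare/93-11 peaks and 13.0% (12.6 to 13.5%) of the 93-11/Nipponbare peaks had no partner. The same count gave 40.1% of merged H3K27me3 regions in 1 parent only. Between the hybrids, 9.42% of merged regions were in 1 hybrid only for H3K4me3, 12.1% for H3K9ac and 35.4% for DNA methylation, so H3K27me3 lay between the active marks and DNA methylation. In sequence covered, Nipponbare/93-11 peaks spanned 34.0 Mb and 93-11/Nipponbare peaks 34.5 Mb, with 28.4 Mb in common, 70.9% of the 40.1 Mb they covered together.

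Where a peak was shared, its borders were close to those of its partner. The median overlap was 90.0% of the longer peak of a pair, with an interquartile range of 82.1 to 95.1%, and the median ratio of widths was 0.993 for Nipponbare/93-11 over 93-11/Nipponbare. Of the shared Nipponbare/93-11 peaks, 17765 overlapped 1 peak of the other hybrid and 47 overlapped 2. Of the shared 93-11/Nipponbare peaks, 17738 overlapped 1 peak, 59 overlapped 2 and 1 overlapped 3. A peak at least 2 times as wide as its partner was rare, at 0.606% of the shared Nipponbare/93-11 peaks and 0.820% of the shared 93-11/Nipponbare peaks. The widest shared domain lay on chromosome 8, from 2050909 to 2061613 (10704 bp) in Nipponbare/93-11 and from 2050948 to 2061609 (10661 bp) in 93-11/Nipponbare. H3K27me3 covered 4585 bp of it in Nipponbare and 7910 bp in 93-11. Pairs that differed most in width were picked after their values were seen. On chromosome 10, the Nipponbare/93-11 peak from 10353631 to 10357473 (3842 bp) met a peak of 754 bp in 93-11/Nipponbare. On chromosome 4, the 93-11/Nipponbare peak from 2047662 to 2050313 (2651 bp) met one of 386 bp in Nipponbare/93-11.

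Few peaks lay near the border of the sharing rule. An overlap under 50 bp held for 2 peaks, both of 93-11/Nipponbare, and a gap under 50 bp for 11. Just inside the rule, the 93-11/Nipponbare peak on chromosome 10 from 2571145 to 2572725 overlapped a Nipponbare/93-11 peak by 30 bp, and that on chromosome 1 from 39274821 to 39276297 by 44 bp. Just outside it, the Nipponbare/93-11 peak on chromosome 1 from 32854340 to 32855509 lay 34 bp from a 93-11/Nipponbare peak, and the 93-11/Nipponbare peak on chromosome 5 from 25625734 to 25626750 lay 29 bp from a Nipponbare/93-11 peak. Most unshared peaks were well apart from any partner. The median gap to the nearest peak of the other hybrid was 5271 bp for Nipponbare/93-11-only peaks and 5300 bp for 93-11/Nipponbare-only peaks. A gap of at most 1000 bp held for 9.34 and 8.72% of them.

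Peaks of 1 hybrid only were narrower than shared ones. In Nipponbare/93-11 their median width was 1062 bp (interquartile range 881 to 1350 bp), against 1540 bp (1195 to 2081 bp) for shared peaks. In 93-11/Nipponbare the medians were 1063 bp (878 to 1359 bp) and 1553 bp (1197 to 2109 bp). As a result, peaks of 1 hybrid only held 9.85% of the sequence covered in Nipponbare/93-11 and 10.1% in 93-11/Nipponbare. By construction, a narrow peak also has less length with which to meet a partner.

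The share of unshared peaks did not fall steadily with width. Each list was divided into 10 classes of nearly equal size by width, from the narrowest (class 1) to the widest (class 10). In class 1, which ended at 910 bp in Nipponbare/93-11 and 912 bp in 93-11/Nipponbare, 36.2% (34.1 to 38.3%) and 39.1% (36.9 to 41.2%) of peaks were in 1 hybrid only. The share was lowest in class 8, at 3.74% (2.96 to 4.66%) and 3.33% (2.60 to 4.21%). It was higher again in class 10, at 8.74% (7.55 to 10.1%) and 9.39% (8.16 to 10.7%). Among the widest 1%, which began at 4100 bp and 4167 bp, 50 of 204 Nipponbare/93-11 peaks (24.5%, 18.8 to 31.0%) and 46 of 204 93-11/Nipponbare peaks (22.5%, 17.0 to 28.9%) had no partner. The widest domains were thus listed in 1 hybrid only more often than peaks of class 5 to class 9, in both libraries. The other marks also had more unshared peaks among the widest 1% than in class 9. For H3K4me3 these shares were 7.17 and 2.19% in Nipponbare/93-11, for H3K9ac 8.78 and 2.67%, and for DNA methylation 55.3 and 16.3%.

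**Figure D1:**
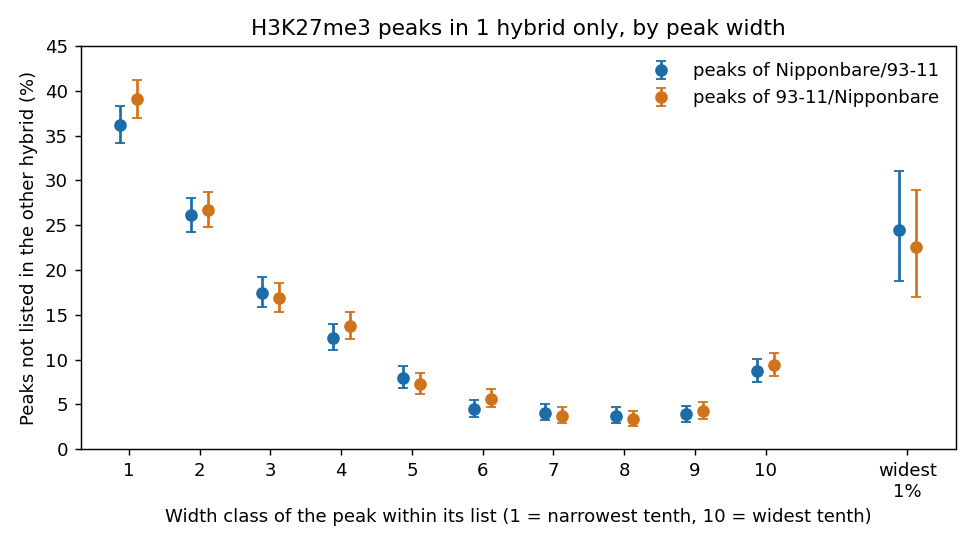
Share of H3K27me3 peaks with no partner in the other hybrid (y axis, %) by width class of the peak within its list (x axis, class 1 narrowest, class 10 widest, and the widest 1% apart). Points are the 2 libraries and bars are exact 95% intervals; the share runs from 36.2 and 39.1% in class 1 to 3.74 and 3.33% in class 8, and is 24.5 and 22.5% in the widest 1%.

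The 5 widest Nipponbare/93-11-only peaks lay on chromosomes 1, 2 and 3. The first, with 11227 bp on chromosome 3 from 28369178 to 28380405, was also the widest H3K27me3 peak of its list. Nipponbare had 2 H3K27me3 peaks there that covered 4764 bp and 93-11 had 0, while H3K4me3, H3K9ac and DNA methylation had 2 peaks each in every line. The next, on chromosome 2 from 31412963 to 31422265 (9302 bp), had H3K27me3 in neither parent, lay 12094 bp from the nearest 93-11/Nipponbare peak, and carried H3K4me3 in every line. A domain of 7294 bp on chromosome 1, from 42240228 to 42247522, was known from the parents: both parents listed H3K27me3, over 7215 bp in Nipponbare and 3804 bp in 93-11. On chromosome 1 from 7149680 to 7156944 (7264 bp), neither parent listed it, and every line listed H3K4me3, H3K9ac and DNA methylation. On chromosome 3 from 31004174 to 31010771 (6597 bp), both parents listed it, over 3077 bp in Nipponbare and 3434 bp in 93-11. At each of these 5 regions H3K4me3 and H3K9ac were listed in both hybrids, although H3K27me3 was listed in 1.

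The 5 widest 93-11/Nipponbare-only peaks each overlapped H3K27me3 of at least 1 parent. On chromosome 8 from 11017712 to 11025548 (7836 bp), Nipponbare H3K27me3 covered all 7836 bp and 93-11 H3K27me3 1934 bp. On chromosome 4 from 34009158 to 34015179 (6021 bp), the parents covered 5856 bp and 5935 bp. These domains were therefore listed in 3 of the 4 lines and missing from Nipponbare/93-11. On chromosome 7 from 25865478 to 25872311 (6833 bp), 93-11 alone of the parents listed H3K27me3, over 3768 bp. At these 3 regions each of the 4 lines listed H3K4me3 and H3K9ac. At the other 2 regions the active marks differed between the hybrids as well. The domain of 5934 bp on chromosome 9, from 13932189 to 13938123, held H3K27me3 in 93-11 (5889 bp) and 93-11/Nipponbare, and H3K4me3 and H3K9ac in 93-11/Nipponbare alone. The domain of 6470 bp on chromosome 4, from 20092658 to 20099128, held H3K27me3 in Nipponbare (6370 bp) and 93-11/Nipponbare, H3K4me3 in 93-11/Nipponbare alone, and H3K9ac in Nipponbare and Nipponbare/93-11.

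Shared peaks and peaks of 1 hybrid only differed most in whether the parents listed H3K27me3. Of the shared Nipponbare/93-11 peaks, 71.2% lay on H3K27me3 of both parents and 4.88% (4.57 to 5.21%) on that of neither. Of the 2548 Nipponbare/93-11-only peaks, 331 (13.0%, 11.7 to 14.4%) lay on H3K27me3 of both parents and 1066 (41.8%, 39.9 to 43.8%) on that of neither. Of the 2662 93-11/Nipponbare-only peaks, 369 (13.9%, 12.6 to 15.2%) were in both parents and 1131 (42.5%, 40.6 to 44.4%) in neither. Put the other way, 55.1% of the Nipponbare/93-11 peaks in neither parent were unshared, against 2.54% of those in both parents. In 93-11/Nipponbare these shares were 56.7 and 2.83%. The peaks in neither parent were also the narrowest of the unshared ones, with medians of 982 bp and 998 bp, against 1282 bp and 1207 bp for those in both parents.

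Unshared wide domains were more often known from both parents than unshared narrow peaks. In class 10, 67 of 178 Nipponbare/93-11-only peaks (37.6%, 30.5 to 45.2%) and 49 of 192 93-11/Nipponbare-only peaks (25.5%, 19.5 to 32.3%) lay on H3K27me3 of both parents. Among peaks narrower than the median of their list, 9.81% (8.55 to 11.2%) and 12.1% (10.7 to 13.6%) did. Shared peaks had the same direction with width, at 81.7% in class 10 and 58.0% below the median in Nipponbare/93-11, and at 82.1 and 57.3% in 93-11/Nipponbare. Merged over all 4 lines, 327 regions were listed in every line but 93-11/Nipponbare and 363 in every line but Nipponbare/93-11.

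**Figure D2:**
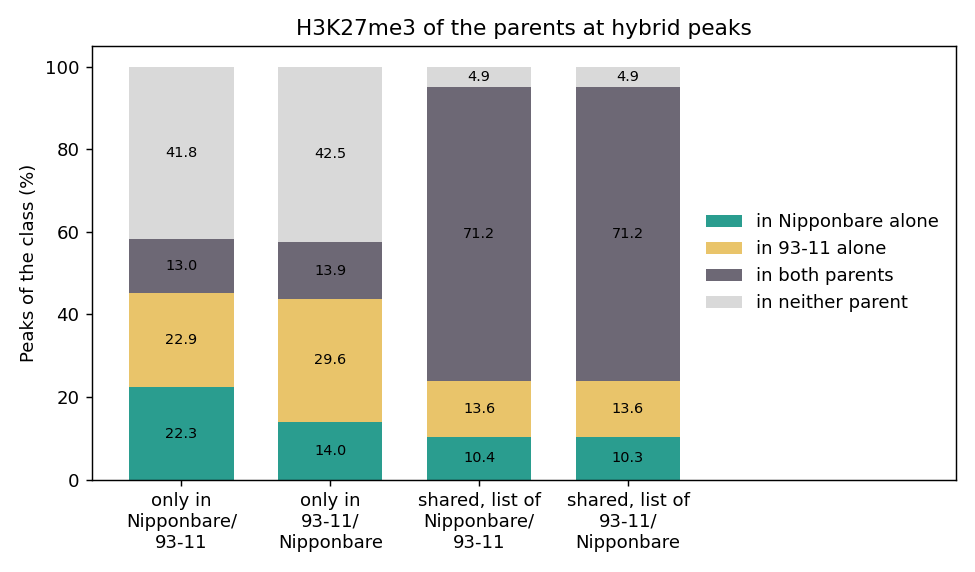
Parental H3K27me3 at hybrid peaks, as the percentage (y axis) of peaks in each class (x axis) that overlap H3K27me3 of Nipponbare alone, 93-11 alone, both parents or neither. Shared peaks are 71.2% in both parents, while peaks of 1 hybrid only are 41.8 and 42.5% in neither and differ in how the rest divide between Nipponbare and 93-11.

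Over all widths, each hybrid's own peaks held relatively more peaks of the parent named first in its label. Of the shared Nipponbare/93-11 peaks found in 1 parent, 43.2% (41.8 to 44.8%) were in Nipponbare and the others in 93-11, whose list is longer (18761 peaks against 17479). Among Nipponbare/93-11-only peaks, 568 were in Nipponbare alone and 583 in 93-11 alone, which put the Nipponbare share at 49.3% (46.4 to 52.3%). Among 93-11/Nipponbare-only peaks, 373 were in Nipponbare alone and 789 in 93-11 alone, a share of 32.1% (29.4 to 34.9%). The intervals of the 3 shares do not overlap. Among unshared peaks narrower than the median, Nipponbare held 462 of the 924 single-parent peaks (interval of the share 46.7 to 53.3%) for Nipponbare/93-11 and 31.3% (28.4 to 34.4%) for 93-11/Nipponbare. In class 10 the order was the opposite, at 34.4% (22.9 to 47.3%), 22 peaks against 42, and 41.4% (30.9 to 52.4%), 36 peaks against 51, with overlapping intervals. Among the widest 1% the order was that of all widths. Nipponbare/93-11-only peaks numbered 9 in Nipponbare against 11 in 93-11 (interval of the Nipponbare share 23.1 to 68.5%). For 93-11/Nipponbare-only peaks these counts were 7 against 12 (16.3 to 61.6%), and the intervals overlap. These counts are too small to decide whether the widest domains share the lean toward the parent named first. Peaks in both parents divided nearly evenly, with 331 in Nipponbare/93-11 only and 369 in 93-11/Nipponbare only. An exchange of labels between the 2 hybrid libraries would reverse this direction.

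The parents' own peaks gave the same picture. Of the 3902 Nipponbare H3K27me3 peaks that 93-11 did not list, Nipponbare/93-11 listed 61.8% (60.2 to 63.3%) and 93-11/Nipponbare 56.9% (55.3 to 58.4%). Of the 5183 93-11 peaks that Nipponbare did not list, Nipponbare/93-11 listed 58.2% (56.9 to 59.6%) and 93-11/Nipponbare 62.4% (61.1 to 63.8%). For peaks that both parents listed, the hybrids were alike, at 95.8 and 96.1% of the Nipponbare peaks. Counting only parental peaks that 1 hybrid listed, Nipponbare-only peaks divided 566 to 375 and 93-11-only peaks 583 to 800 between Nipponbare/93-11 and 93-11/Nipponbare. These counts use the same overlaps as the preceding comparison, seen from the parental lists.

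The active marks had the same relative direction, on lists of less equal length. For H3K4me3, Nipponbare-only peaks listed in 1 hybrid divided 634 to 150 between Nipponbare/93-11 and 93-11/Nipponbare, and 93-11-only peaks 381 to 353. For H3K9ac the counts were 751 to 224 and 536 to 319, so that Nipponbare/93-11, which has the longer H3K9ac list (31943 against 30254 peaks), listed more of both kinds. For DNA methylation the direction was opposite to that of H3K27me3, with 842 to 2439 for Nipponbare-only and 1833 to 745 for 93-11-only peaks. As a share of the parental peaks listed in 1 hybrid, those in Nipponbare/93-11 made up 80.9% of Nipponbare-only and 51.9% of 93-11-only peaks for H3K4me3, and 77.0 and 62.7% for H3K9ac. For H3K27me3 these shares were 60.1% (56.9 to 63.3%) and 42.2% (39.5 to 44.8%), and for DNA methylation 25.7 and 71.1%. Among peaks of both parents, taken from the Nipponbare and the 93-11 list, these shares were 54.9 and 54.6% for H3K4me3 and 78.8 and 78.5% for H3K9ac. For H3K27me3 they were 47.4 and 47.2% (43.5 to 50.9%), and for DNA methylation 35.3 and 34.9%. Beside these, H3K4me3 departed mainly at Nipponbare-only peaks and H3K9ac at 93-11-only peaks. A higher share at Nipponbare-only than at 93-11-only peaks was thus not particular to H3K27me3. Each active mark departed clearly on 1 side only. H3K27me3 also departed clearly on 1 side only, at Nipponbare-only peaks. Its intervals for 93-11-only peaks and for 93-11 peaks of both parents overlap. Whether the marks differ in this cannot be tested with 1 library each.

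The lean appeared on most chromosomes, to different extents. Nipponbare-only H3K27me3 peaks were listed more often in Nipponbare/93-11 than in 93-11/Nipponbare on 10 chromosomes of 12, the exceptions being chromosome 7 (24 against 26) and chromosome 10 (24 against 29). It was widest on chromosome 4, at 61 against 24, and on chromosome 11, at 62 against 29, and chromosome 1 was nearly level at 64 against 61. The 93-11-only peaks were listed more often in 93-11/Nipponbare on 11 chromosomes of 12, the exception being chromosome 1 with 97 in Nipponbare/93-11 and 91 in 93-11/Nipponbare. The 93-11 peaks that both parents listed were also higher in 93-11/Nipponbare on 9 chromosomes, lower on 1 and equal on 2. For Nipponbare peaks that both parents listed, these numbers were 7, 4 and 1. The number of chromosomes for 93-11-only peaks was thus close to that of 93-11 peaks of both parents. In the other marks, Nipponbare-only peaks were higher in Nipponbare/93-11 on 12 chromosomes for H3K4me3 and H3K9ac and on 0 for DNA methylation. The 93-11-only peaks were higher in Nipponbare/93-11 on 7 chromosomes for H3K4me3 and on 12 for H3K9ac and DNA methylation.

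**Figure D3:**
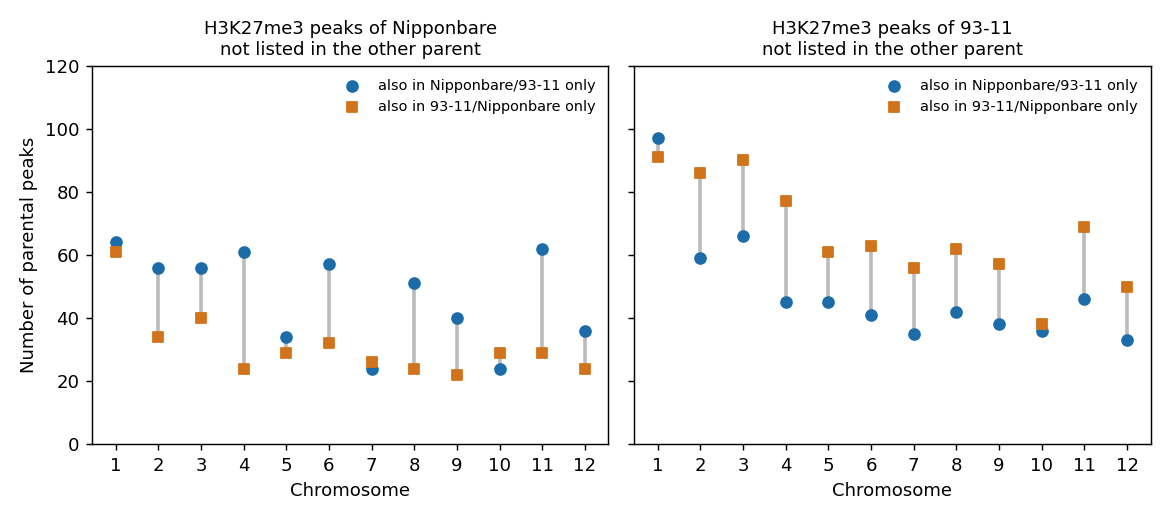
Number (y axis) of H3K27me3 peaks of Nipponbare (left) and 93-11 (right) that the other parent did not list and 1 hybrid did, by chromosome (x axis). Circles are peaks found in Nipponbare/93-11 only and squares peaks found in 93-11/Nipponbare only; circles lie higher on 10 chromosomes for Nipponbare peaks, and squares on 11 for 93-11 peaks.

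Within chromosomes the lean of Nipponbare-only peaks was uneven, as windows of 4 Mb showed that were picked after their values were seen. On chromosome 4 from 4 to 8 Mb, 12 such peaks were in Nipponbare/93-11 only and 1 in 93-11/Nipponbare only, and from 12 to 16 Mb 11 and 1. On chromosome 11 the counts were 17 and 4 from 20 to 24 Mb, and 15 and 4 from 24 to 28 Mb. At the end of chromosome 1 the direction was the opposite, with 2 and 11 from 36 to 40 Mb, and 2 and 10 from 40 to 44 Mb. On chromosome 10 from 8 to 12 Mb they were 0 and 8. H3K4me3 peaks of Nipponbare alone in the same windows numbered 10 and 0 in both windows of chromosome 4, and 24 and 0 and then 18 and 4 on chromosome 11. At the end of chromosome 1 they numbered 5 and 6 and then 4 and 2, and on chromosome 10 they numbered 2 and 1. Over all chromosomes, Nipponbare-only peaks divided 634 to 150 for H3K4me3 and 566 to 375 for H3K27me3. A lean of H3K4me3 toward Nipponbare/93-11 was therefore not particular to the windows picked.

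Peaks of 1 hybrid only were spread over all 12 chromosomes in similar shares. In Nipponbare/93-11 the share ranged from 9.52% (8.15 to 11.0%) on chromosome 7 to 13.9% (12.2 to 15.9%) on chromosome 11, against 12.5% of the list. In 93-11/Nipponbare it ranged from 10.6% (9.17 to 12.2%) on chromosome 7 to 14.9% (13.1 to 16.9%) on chromosome 11, against 13.0%. Chromosome 7 was thus lowest and chromosome 11 highest in both, and the intervals of chromosome 7 lay below the share of the list. With each list restricted to peaks no narrower than its median, chromosome 7 held 15.2% unshared peaks over both hybrids, where the lists as a whole held 15.9 and 16.2%. In this setting a peak whose only partner was narrower than the median also counted as unshared. Set against the whole other list, 4.99 and 5.27% of these wider peaks were unshared, a count not made for chromosome 7. Whether its low share holds among wider peaks therefore cannot be told from this setting. The numbers of unshared peaks of the hybrids differed most on chromosome 12, with 148 in Nipponbare/93-11 and 182 in 93-11/Nipponbare, a ratio of 0.813, and on chromosome 8 the ratio was highest, at 1.07.

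**Figure D4:**
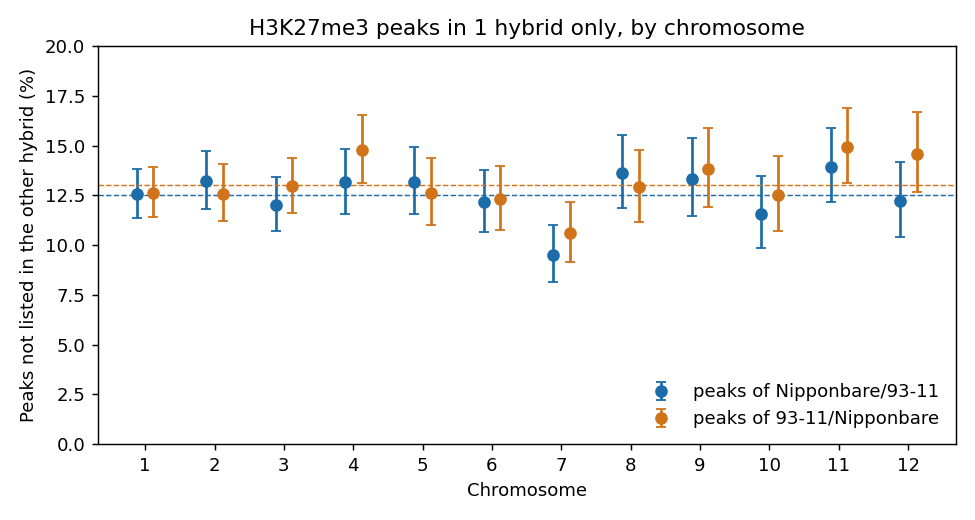
Share of H3K27me3 peaks with no partner in the other hybrid (y axis, %) for the 12 chromosomes (x axis). Points are the 2 libraries, bars exact 95% intervals and dashed lines the share of each whole list; chromosome 7 is lowest, at 9.52 and 10.6%, and chromosome 11 highest, at 13.9 and 14.9%.

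Position along the chromosome made little difference. With each chromosome divided into 10 parts of equal length, the share of unshared peaks lay between 11.2 and 13.8% in Nipponbare/93-11 and between 11.6 and 14.1% in 93-11/Nipponbare. Within 500 kb of a chromosome end it was 13.8% (11.3 to 16.7%) and 13.6% (11.1 to 16.5%). Peaks in windows of 1 Mb with at most 25 peaks of the list were unshared in 11.1% (8.69 to 13.8%) of cases in Nipponbare/93-11 and in 14.3% (11.8 to 17.1%) in 93-11/Nipponbare. In windows with 71 peaks or more the shares were 12.8 and 12.8%. The plastid sequence held 1 H3K27me3 peak in each hybrid, which did not overlap each other.

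The differences were scattered rather than grouped in blocks. Of the 377 windows of 1 Mb, 6 held no Nipponbare/93-11-only peak and 8 no 93-11/Nipponbare-only peak, and the median was 6 and 7 per window. The peak that followed a Nipponbare/93-11-only peak along the chromosome was itself unshared in 13.8% (12.5 to 15.2%) of cases, and the peak that followed a shared one in 12.3% (11.8 to 12.8%). In 93-11/Nipponbare these shares were 13.5% (12.3 to 14.9%) and 12.9% (12.4 to 13.4%), with overlapping intervals in both lists. Neither list held a run of 5 or more consecutive unshared peaks. Runs of 4 numbered 5 in Nipponbare/93-11 and 2 in 93-11/Nipponbare, runs of 3 numbered 28 and 44, and 1882 and 1990 unshared peaks stood alone.

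Unshared peaks of one hybrid lay close to unshared peaks of the other somewhat more often than shared peaks did. Within 1000 bp, 59 of the Nipponbare/93-11-only peaks (2.32%, 1.77 to 2.98%) had a 93-11/Nipponbare-only peak, against 0.994% (0.853 to 1.15%) of shared peaks. In the other direction these shares were 2.18% (1.66 to 2.81%) and 1.02% (0.880 to 1.18%). Within 5000 bp the shares for Nipponbare/93-11 peaks were 9.62% (8.50 to 10.8%) and 7.20% (6.83 to 7.59%). A shared peak has a partner at its own position, and whether this leaves less room beside it was not tested.

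The longest runs were named by number of peaks and then by span. In Nipponbare/93-11, the run with the largest span lay on chromosome 6 from 24607123 to 24691826 (84.7 kb), where Nipponbare had 1 H3K27me3 peak, 93-11 had 3, Nipponbare/93-11 had 4 and 93-11/Nipponbare had 1. On chromosome 8 from 881066 to 948291 (67.2 kb) they numbered 2, 2, 4 and 0 in the same order, while H3K4me3 and H3K9ac had 7 peaks each in every line. On chromosome 11 from 27233160 to 27281472 (48.3 kb) they numbered 1, 0, 4 and 0, and H3K4me3 peaks 2, 0, 2 and 1. In 93-11/Nipponbare, the run on chromosome 4 from 20520328 to 20671621 (151 kb) had 1, 3, 1 and 4 H3K27me3 peaks, with 10 or 11 H3K4me3 peaks in each line. The run on chromosome 12 from 6528537 to 6563563 (35.0 kb) had 0, 2, 0 and 4, with H3K4me3 in 93-11 alone. A run of 3 on chromosome 5 from 13656755 to 13854841 (198 kb) had 1, 4, 0 and 3.

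The windows of 1 Mb with most unshared peaks held a mixture of shared and unshared ones. For Nipponbare/93-11, the window on chromosome 10 from 20 to 21 Mb held 19 unshared of 96 peaks (19.8%, 12.4 to 29.2%), and that on chromosome 6 from 24 to 25 Mb 16 of 51 (31.4%, 19.1 to 45.9%). For 93-11/Nipponbare, the window on chromosome 5 from 27 to 28 Mb held 18 of 81 (22.2%, 13.7 to 32.8%), and that on chromosome 8 from 5 to 6 Mb 15 of 70 (21.4%, 12.5 to 32.9%). The latter was tied at 15 with 3 other windows and was taken for its larger share. The window on chromosome 1 from 38 to 39 Mb was among the highest in both directions, with 16 unshared of 83 peaks in Nipponbare/93-11 and 17 of 84 in 93-11/Nipponbare.

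Active marks were listed in both hybrids at most H3K27me3 peaks of 1 hybrid only. H3K4me3 lay on 65.9% (64.1 to 67.8%) of the Nipponbare/93-11-only H3K27me3 peaks in Nipponbare/93-11 and on 63.0% (61.0 to 64.8%) in 93-11/Nipponbare, where H3K27me3 was not listed. On 93-11/Nipponbare-only peaks H3K4me3 was at 59.8% (58.0 to 61.7%) in 93-11/Nipponbare and 61.4% (59.5 to 63.3%) in Nipponbare/93-11. In both sets, then, the Nipponbare/93-11 library listed slightly more H3K4me3, as it did at shared peaks (79.8% against 77.1%), and its H3K4me3 list is the longer one (30697 against 29775 peaks). Of the Nipponbare/93-11-only H3K27me3 peaks with H3K4me3 in that hybrid, 93.2% also had it in 93-11/Nipponbare, against 94.9% at shared H3K27me3 peaks. For 93-11/Nipponbare-only peaks the corresponding shares were 97.2 and 98.1%. H3K9ac behaved alike, at 67.5 and 65.1% of Nipponbare/93-11-only peaks in Nipponbare/93-11 and 93-11/Nipponbare, and at 65.4 and 62.6% of 93-11/Nipponbare-only peaks.

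Unshared H3K27me3 peaks carried active marks less often than shared ones. H3K4me3 of the same hybrid was at 65.9 and 59.8% of unshared peaks in Nipponbare/93-11 and 93-11/Nipponbare, against 79.8 and 77.1% of shared ones. Among peaks narrower than the median of their list, the difference was smaller, with 67.1% (65.0 to 69.1%) of unshared and 76.1% (75.1 to 77.0%) of shared Nipponbare/93-11 peaks, and 60.9 and 73.8% in 93-11/Nipponbare. DNA methylation of the same hybrid was at 13.9% (12.6 to 15.3%) of unshared and 12.8% (12.3 to 13.3%) of shared peaks in Nipponbare/93-11, and at 15.1% (13.8 to 16.5%) and 14.1% (13.6 to 14.6%) in 93-11/Nipponbare. Over all widths the intervals of unshared and shared peaks overlap in both hybrids. Below the median width DNA methylation was more frequent on unshared peaks, at 12.6% (11.1 to 14.1%) against 10.03% (9.38 to 10.7%) in Nipponbare/93-11 and 13.4% against 10.7% in 93-11/Nipponbare, with intervals that do not overlap in either hybrid. In class 10 it was at 26.97% (20.6 to 34.1%) of unshared and 20.6% (18.7 to 22.5%) of shared Nipponbare/93-11 peaks, and at 25 and 22.7% in 93-11/Nipponbare. Peaks with none of the other 3 marks made up 21.9% (20.3 to 23.6%) of unshared and 12.1% (11.6 to 12.6%) of shared Nipponbare/93-11 peaks. In 93-11/Nipponbare they made up 25.9% (24.2 to 27.6%) and 13.5% (13.0 to 14.0%).

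**Figure D5:**
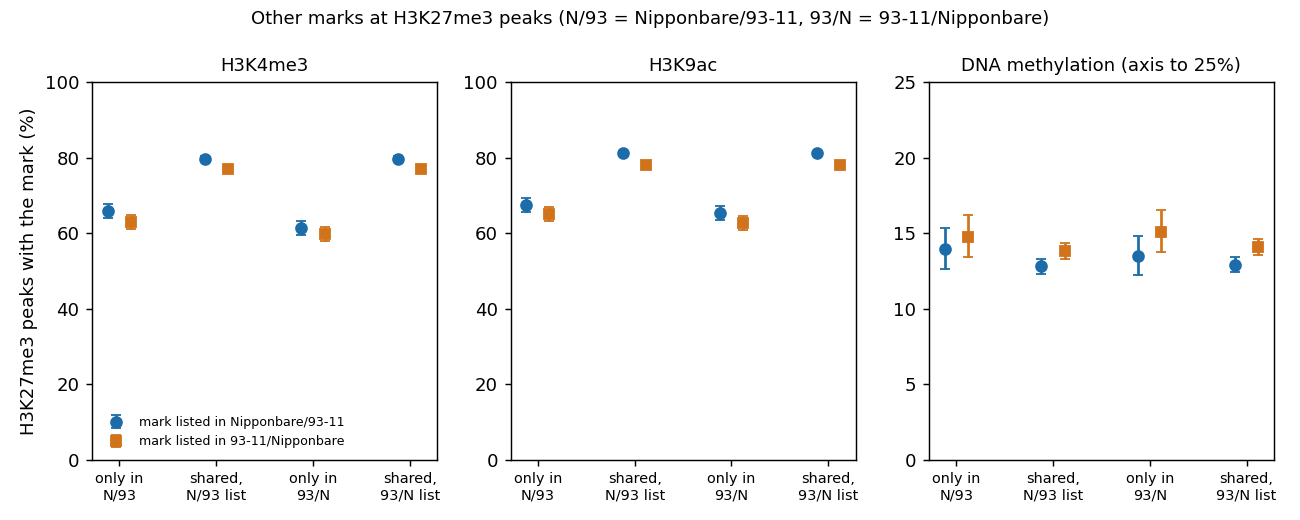
Percentage of H3K27me3 peaks (y axis) that carry H3K4me3, H3K9ac or DNA methylation in Nipponbare/93-11 (circles) and in 93-11/Nipponbare (squares), for peaks of 1 hybrid only and shared peaks (x axis), with exact 95% intervals. At Nipponbare/93-11-only H3K27me3 peaks H3K4me3 stands at 65.9 and 63.0% in the 2 hybrids, below the 79.8 and 77.1% of shared peaks.

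H3K4me3 differed between the hybrids most often at Nipponbare/93-11-only H3K27me3 peaks that Nipponbare alone of the parents listed, among the sets given next. At these 568 peaks, H3K4me3 was in Nipponbare/93-11 and not in 93-11/Nipponbare at 47 and the reverse at 13, with 323 in both. At the 583 that 93-11 alone listed, these counts were 22, 11 and 360. At the 789 93-11/Nipponbare-only peaks that 93-11 alone listed, H3K4me3 was in 93-11/Nipponbare and not in Nipponbare/93-11 at 16 and the reverse at 22, with 414 in both. At the 373 that Nipponbare alone listed, these counts were 6, 13 and 249. The first 2 counts made up 8.27 and 2.29% of the first set and 3.77 and 1.89% of the second. For the third they made up 2.03 and 2.79%, and for the last 1.61 and 3.49%. At shared peaks they made up 4.10 and 1.44% in the Nipponbare/93-11 list and 1.44 and 4.08% in the 93-11/Nipponbare list. Only the first set lay well above shared peaks. These shared peaks were of any parental state, with 71.2% of the Nipponbare/93-11 list in both parents. Shared peaks of Nipponbare alone were not counted apart. Among H3K4me3 peaks of Nipponbare alone listed in 1 hybrid, 634 against 150 were in Nipponbare/93-11 over the whole genome. Whether the excess of the first set goes with unshared H3K27me3 was not tested. H3K4me3 of Nipponbare/93-11 was also listed in the other hybrid at 86.3% (79.0 to 91.8%) of class 10 Nipponbare/93-11-only peaks that carried it, against 94.4% (93.0 to 95.5%) of those narrower than the median. In 93-11/Nipponbare these shares were 95.1% (89.7 to 98.2%) and 97.8% (96.9 to 98.6%), and their intervals overlap.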

How the data were processed

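Chromatin of whole shoots was immunoprecipitated and sequenced on Illumina libraries, per the labels' protocols. The authors deposited 1 peak list per library, with 3 columns and no header. The values in these deposited files are positions and hold no score, and the sources used here name no aligner, peak caller, threshold, control library or genome build. Of 24 labelled samples, the 16 with a list were used and 8 RNA samples were not analysed here. Members, named regions and comparisons were chosen with earlier results of these data known.

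Overlap needed 1 bp, width was end minus start, and lists were merged where peaks overlapped. Peaks on the plastid sequence stayed in totals and were left out of chromosome, position and window counts. Named were the 5 widest peaks of each hybrid only, the 3 longest runs and 3 fullest windows of 1 Mb per hybrid, 2 peaks on each side of the sharing border and the widest shared domain. No test was possible with 1 library per hybrid. The code was tested on the H3K27me3 lists of the hybrids, with randomly thinned copies, a direct recount for randomly drawn peaks and a planted run. Alternatives were a 50% reciprocal overlap, an overlap of 200 bp, a gap of 500 bp, lists at or above median width, lists of equal length, merging of peaks under 500 bp apart, nuclear chromosomes only, other window sizes and runs of 3. Computations used scipy 1.17.1, matplotlib 3.10.9, pandas 2.3.3 and numpy 2.4.6 under Python 3.11.15.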

Additional observations from a re-analysis of the deposited data

How the results depend on the processing

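Of 80 values recomputed for 15 results, 48 stayed within the counting interval of the value reported (for counts, within 1.5 times) and 32 moved. No paired analysis was possible because there is 1 library per hybrid, and for the same reason none could be left out. Under a 50% reciprocal overlap, the unshared share was 14.2% in Nipponbare/93-11 and 14.6% in 93-11/Nipponbare, their median widths 1098 and 1096 bp, merged regions of 1 hybrid 25.2%, and the chromosome 7 share 11.9%. Allowing a gap of 500 bp gave 11.9, 12.4 and 22.0% for the first 2 shares and the merged regions, and merging peaks under 500 bp apart gave 22.1% for the latter. With both lists at or above their median width, these were 15.9, 16.2 and 27.7%, the median widths 1664 and 1685 bp and the chromosome 7 share 15.2%. In that setting 40.2% of unshared peaks were in neither parent, 35.3% of single-parent 93-11/Nipponbare-only peaks were in Nipponbare, H3K4me3, H3K9ac and DNA methylation lay on 70.9, 71.2 and 16.3% of unshared peaks, and 1 run of 5 appeared. With the tested list alone so reduced, the shares were 4.99, 5.27 and 8.86% and the median widths 2232 and 2260 bp. Lists shortened to the widest 17479 peaks gave 13.2% in Nipponbare/93-11, 23.4% of merged regions and median widths of 1194 and 1202 bp. Runs of 3 or more numbered 79. The lean toward the parent named first kept its order in the 4 settings tried. Width settings select on width, so width medians move by construction. Restricting both lists also removes narrower partners, so by construction it cannot give fewer unshared peaks than keeping the other list whole. The cause of the other moves was not tested. Depth is unknown, so a peak not listed can lie below an unknown threshold.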
